A study of Homo sapiens with 6 samples.

Results

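The Notch pathway genes described here are 3 receptors (NOTCH1, NOTCH2 and NOTCH3), 3 ligands (JAG1, JAG2 and DLL1) and 4 genes of the HES and HEY families (HES1, HES6, HEY1 and HEYL), 10 of the 22411 genes measured. They were taken by gene symbol, and each was represented by 1 feature of the Human Transcriptome Array, so no choice between features was needed. RNA came from RH30 cells infected with the IκBα super repressor, called SR cells here (3 arrays), and from RH30 cells infected with the empty vector, called vector cells (3 arrays), both kept in DMEM with fetal bovine serum. RH30 is an established cell line from an alveolar rhabdomyosarcoma, a childhood tumor with features of skeletal muscle, and the super repressor was carried by a pBabe-puro retrovirus. The IκBα super repressor is a form of IκBα that cannot be degraded on signal and so holds classical NF-κB in the cytoplasm. The comparison addresses transcript levels in SR and vector cells of this 1 cell line. Independent infections are not named, so loss of classical NF-κB activity cannot be told apart from other differences between the infected groups.

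Notch receptors are cut by a furin-type protease on their way to the cell surface, where they meet Jagged or Delta ligands on neighboring cells. Binding lets an ADAM protease and then the γ-secretase complex cut the receptor, and the freed intracellular domain enters the nucleus, binds the DNA-binding protein RBPJ and a Mastermind coactivator, and turns on genes such as those of the HES and HEY families. HES and HEY proteins are themselves repressors with a basic helix-loop-helix domain, and in mouse myoblasts Notch signaling restrains muscle differentiation.

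Promoter sequence was available from RefSeq (GRCh38.p14) for 8 of the 10 genes, and the 250 bases before each start were searched on both strands for the RBPJ motif TGGGAA, the N-box CACNAG that HES proteins bind, the E-box CANNTG, and the κB consensus. DLL1 and HEY1 had no promoter sequence and were not searched. HES1 and HEYL are shown because, of the 8 genes searched, only they hold the RBPJ motif, which is in capitals. Outside the 10 genes, HES4 and HEY2 held 1 match each and HES5 held 2. The motif was not confined to such targets among the other pathway genes searched. FURIN, RBPJ, CTBP2 and L3MBTL3 held 2 matches each, counted over all listed promoters of a gene. POGLUT1, LFNG, NEURL1, PSENEN, DTX2, RBPJL and CTBP1 held 1 each. HES1 (chr3:194135998-194136147, plus strand) has 2 RBPJ motifs in the same orientation, at -84 and -70 from the start, with N-boxes at -165, -132 and -58. HEYL (chr1:39639644-39639843, minus strand) has 2 as well, at -178 on the opposite strand and at -99.
HES1: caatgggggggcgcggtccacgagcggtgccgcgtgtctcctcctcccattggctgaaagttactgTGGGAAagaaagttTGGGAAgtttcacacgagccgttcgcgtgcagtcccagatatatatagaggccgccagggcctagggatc
HEYL: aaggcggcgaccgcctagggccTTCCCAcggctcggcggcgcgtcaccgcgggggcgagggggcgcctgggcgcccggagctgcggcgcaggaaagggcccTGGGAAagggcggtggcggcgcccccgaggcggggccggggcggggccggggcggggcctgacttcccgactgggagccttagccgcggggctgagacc

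Of 35116 promoters of the same length, 20.8% held at least 1 RBPJ motif and 2.9% held 2 or more. The κB consensus, the recognition sequence of NF-κB, was found before the start of NOTCH2 (chr1:120069663-120069782, minus strand, at -99) and of JAG2 (chr14:105168777-105168896, minus strand, at -100), and 10.0% of all promoters held it. These sequences are shown because they are the only ones among the 8 with that match, which is in capitals. In both, the match reads on either strand. The N-box was in 32.0% and the E-box in 61.8% of all promoters, and no matches overlapped within these 8 genes. A match gives letters in the sequence only and was not tested for binding.
NOTCH2: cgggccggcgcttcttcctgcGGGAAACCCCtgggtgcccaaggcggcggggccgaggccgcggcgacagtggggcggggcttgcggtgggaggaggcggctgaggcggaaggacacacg
JAG2: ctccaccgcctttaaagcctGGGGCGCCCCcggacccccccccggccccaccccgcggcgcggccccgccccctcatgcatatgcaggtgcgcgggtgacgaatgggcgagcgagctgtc

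**Figure D1:**
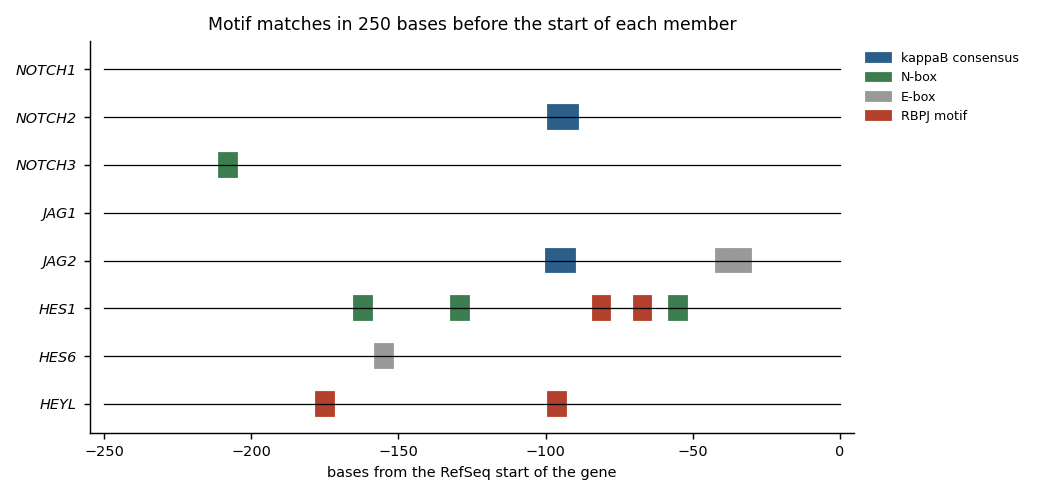
Motif matches in the 250 bases before the RefSeq start of the 8 members with promoter sequence, with the distance from the start in bases on the x axis and a colored box for each match on either strand. HES1 holds 2 RBPJ motifs and 3 N-boxes, HEYL holds 2 RBPJ motifs, and the κB consensus lies before NOTCH2 and JAG2.

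Values are log2 RMA levels as deposited, where a difference of 1 is a 2-fold change, and the median feature of an array lay between 4.344 and 4.398. NFKBIA, the gene of which the super repressor is a mutant form, was 13.55, 13.74 and 13.57 in the SR arrays and 11.61, 11.66 and 11.58 in the vector arrays, without overlap. Of 12 markers of skeletal muscle and rhabdomyosarcoma, 11 lay above the median gene level of 5.13, the exception being TFAP2B, which lay between 3.49 and 3.68. The log2 of the summed level of these markers was 18.08 to 18.20 in SR cells and 17.565 to 17.577 in vector cells, a sum to which ACTC1, the brightest of them, contributed most. Of the 12 markers, 6 were higher, 3 were lower (MYF5, MYMK and MYOG) and 3 did not pass the test. Over all genes 18.3% passed it, and 34.2% of those at or above the median level. DES and CHRNA1 in vector cells and MYMK in SR cells had identical values on the 3 arrays. Of the markers for cells other than muscle, 0 of 5 endothelial, 0 of 4 blood, 0 of 5 epithelial and 0 of 4 neural genes lay above the median gene. The muscle regulators MYOD1 and MYOG moved apart, at log2 fold changes of 0.62 and -1.17 (limma adjusted p = 0.028 and 0.0063), and the part of this in the Notch pathway values was not tested. The series' design text gives triplicate cultures per group and names no independent infections, so the p-values rest on spread between arrays that may be only technical, and 3 arrays per group limit the precision. In these bulk samples, fewer cells of a type and less RNA per cell cannot be told apart.

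Among the 10 members, NOTCH1, HES1 and HEY1 were higher in SR cells, none was lower and 7 did not pass the test, at an adjusted p under 0.05 from limma over all genes. These are 30% of the members, against 18.3% of all genes called (9.76% higher and 8.58% lower). All 10 members lay at or above the median gene level, and among the 11206 such genes 34.2% were called, so the members' share was near that background. The groups did not overlap in 6 members, against 29.6% of all genes and 52.0% of those at or above the median level. The median log2 fold change was 0.00 for the members and for all genes. With 3 arrays against 3, an exact 2-sided permutation test of a single gene cannot give a p below 0.1.

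**Figure D2:**
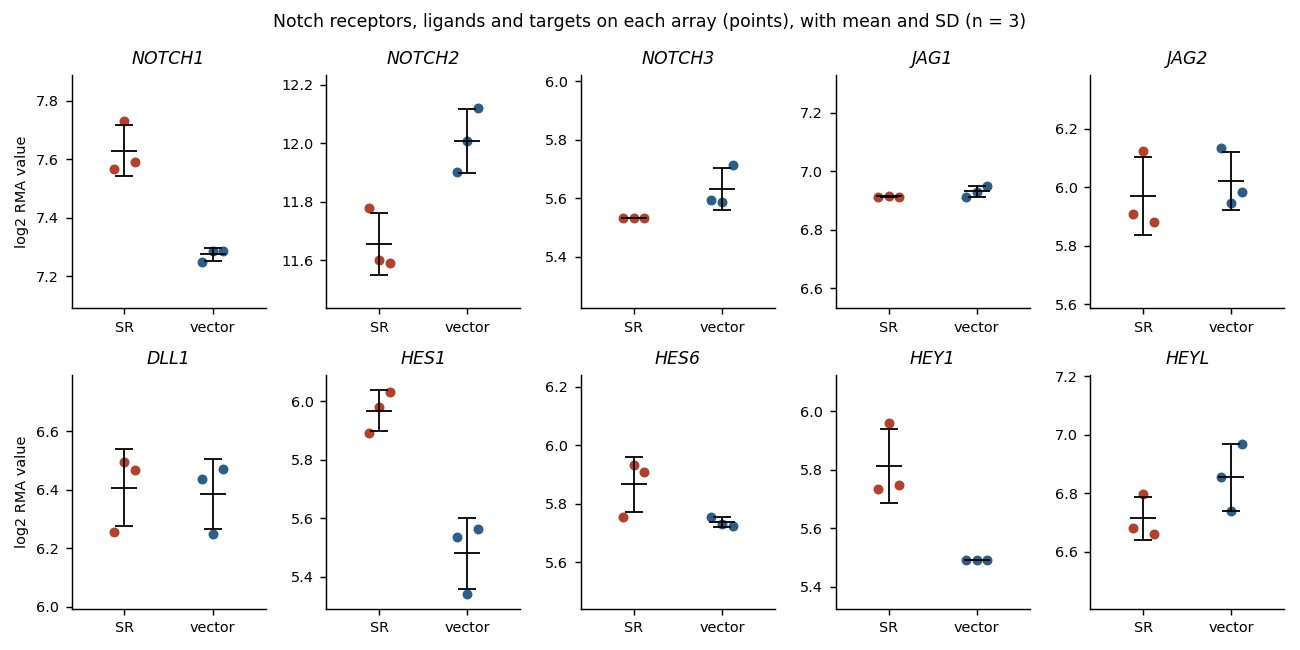
Log2 RMA value of each member on each array (points) with the group mean and SD (black, n = 3), SR arrays left and vector arrays right, on y axes that each span at least 0.8 log2 units. The SR arrays lie above the vector arrays for NOTCH1, HES1, HES6 and HEY1 and below them for NOTCH2 and NOTCH3. For HES6 the groups are apart only in the fourth decimal.

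Among the receptors, NOTCH1 (feature TC09001734.hg.1, chromosome 9), which is mutated to an active form in T cell leukemia, was 7.57, 7.73 and 7.59 in the SR arrays and 7.25, 7.29 and 7.29 in the vector arrays. The lowest SR array exceeded the highest vector array. The log2 fold change was 0.36 (95% interval 0.23 to 0.48, limma adjusted p = 0.0098), or 1.28 times the vector level. NOTCH2 (TC01003054.hg.1, chromosome 1), a receptor whose loss or mutation affects kidney, liver and bone in humans, was 11.78, 11.60 and 11.59 in the SR arrays and 11.90, 12.01 and 12.12 in the vector arrays. All SR arrays were below all vector arrays, with a log2 fold change of -0.35 (95% interval -0.57 to -0.14). Its adjusted p of 0.0502 from limma fell just outside the threshold, and 7 of 18 alternatives placed it inside, among them the fit without SR replicate 1 (adjusted p = 0.0499). NOTCH3 (chromosome 19), a receptor best known from vascular smooth muscle, had the same value, 5.53, on all SR arrays, against 5.59, 5.59 and 5.71 on the vector arrays. The groups did not overlap, but the log2 fold change of -0.10 (95% interval -0.20 to 0.00) missed the threshold (limma adjusted p = 0.21), and passed it only without vector replicate 3 (adjusted p = 0.0051).

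For the ligands, the arrays of both groups overlapped in every case. JAG1 (chromosome 20), a ligand that NF-κB is known to induce in other cell types, was 6.91, 6.92 and 6.91 in the SR arrays and 6.91, 6.93 and 6.95 in the vector arrays. Its log2 fold change was -0.02, with a 95% interval of -0.04 to 0.01 (limma adjusted p = 0.45). JAG2 (chromosome 14), a second Jagged ligand, was 5.91, 6.12 and 5.88 in the SR arrays and 6.13, 5.94 and 5.98 in the vector arrays, a log2 fold change of -0.05 with an interval of -0.29 to 0.19. DLL1 (chromosome 6), a Delta ligand that keeps muscle progenitors from differentiating in mice, was 6.26, 6.50 and 6.47 in the SR arrays and 6.44, 6.25 and 6.47 in the vector arrays. Its log2 fold change was 0.02 with an interval of -0.23 to 0.27, so the intervals of JAG2 and DLL1 were wider than that of JAG1. In JAG1 the value 6.9139 recurred on 3 arrays, SR replicates 1 and 3 and vector replicate 1.

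Of the 4 genes of the HES and HEY families, HES1 and HEY1 passed the test, and HES6 and HEYL did not. HES1 (TC03001071.hg.1, chromosome 3), the best known Notch target and a repressor of differentiation genes, was 5.89, 5.98 and 6.03 in the SR arrays and 5.53, 5.34 and 5.56 in the vector arrays. The lowest SR array again exceeded the highest vector array, and the log2 fold change of 0.49 (95% interval 0.29 to 0.69, limma adjusted p = 0.014) corresponds to 1.40 times the vector level. The call was lost without SR replicate 2 (limma adjusted p = 0.064) and without SR replicate 3 (adjusted p = 0.060). HEY1 (TC08001351.hg.1, chromosome 8), a repressor that Notch induces in vessels and muscle, was 5.73, 5.96 and 5.75 in the SR arrays and was listed at 5.49 in every vector array. Its log2 fold change was 0.32 (95% interval 0.14 to 0.50, limma adjusted p = 0.037), 1.25 times the vector level, and its vector SD was 0 because the vector values were identical. The call of HEY1 was lost without any 1 of 5 arrays, the exception being SR replicate 2 (limma adjusted p = 0.061, 0.080, 0.12, 0.12 and 0.11 without SR replicates 1 and 3 and vector replicates 1, 2 and 3).

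HES6 (chromosome 2), a family member that opposes HES1 and favors muscle differentiation in mice and frogs, was 5.76, 5.93 and 5.91 in the SR arrays and 5.76, 5.73 and 5.73 in the vector arrays. The groups were separated only in the fourth decimal, between SR replicate 1 (5.7568) and vector replicate 1 (5.7562). The log2 fold change of 0.13 (95% interval -0.01 to 0.27) missed the threshold (limma adjusted p = 0.22), and passed it only without SR replicate 1 (adjusted p = 0.0080). HEYL (chromosome 1), a HEY family repressor, was 6.68, 6.80 and 6.66 in the SR arrays and 6.86, 6.74 and 6.97 in the vector arrays. These overlapped, at a log2 fold change of -0.14 (95% interval -0.33 to 0.05, limma adjusted p = 0.35). The members that hold 2 RBPJ motifs, HES1 and HEYL, thus had log2 fold changes of 0.49 and -0.14, and of these HES1 passed the test. Those with the κB consensus, NOTCH2 and JAG2, had -0.35 and -0.05, and neither passed. Among other pathway genes, FURIN, ADAM10, ADAM17, NCSTN and POGLUT1 held it and passed the test (0.54, 0.65, -0.69, -0.37 and -0.16). DLL4, MIB2, NUMBL, MAML1, CREBBP, CTBP1 and CTBP2 held it and did not pass, and NCOR1 held it but was not measured.

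Within SR cells, replicate 2 was the highest array for 7 of the 10 members (NOTCH1, JAG1, JAG2, DLL1, HES6, HEY1 and HEYL), whereas it was the highest in 23.4% of genes at or above the median level. Without it the log2 fold changes of NOTCH1 and HEY1 were 0.31 and 0.25, and both stayed past the threshold (limma adjusted p = 0.0048 and 0.0013).

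Each member was set beside its 20 nearest protein-coding genes at or above the median level, in RefSeq gene order (GRCh38.p14). Of all genes at or above that level, 34.2% were called in either direction. JAG1 lies in a stretch of genes that were higher, while JAG1 itself did not pass the test. Of its 20 neighbors, 17 were higher in SR cells and none was lower. The median of their log2 fold changes was 0.73, against -0.02 for JAG1 itself. The JAG1 value 6.9139 recurred among arrays of both groups, and the part of this in its small change was not tested. SLX4IP and MKKS on one side and BTBD3 and TASP1 on the other had log2 fold changes of 0.72, 0.41, 0.99 and 0.73. NOTCH1 was higher, while 17 of its 20 neighbors were not called and none was higher (median -0.16). The other 3, UBAC1, TMEM250 and EDF1, were lower, close to the threshold (limma adjusted p = 0.0455, 0.0479 and 0.0464). For HEY1, 2 neighbors were higher and 5 lower (median -0.04). HES1 by contrast lay among genes that were higher, with 12 of 20 higher and 1 lower at a median of 0.30. ATP13A3, MB21D2 and TFRC, the gene for the transferrin receptor, had log2 fold changes of 1.33, 1.39 and 0.70. The neighbors of NOTCH2 had a median of -0.15, with 3 higher and 6 lower, and those of NOTCH3 a median of 0.19, with 10 higher and none lower. The medians around JAG2, DLL1, HES6 and HEYL were -0.03, 0.03, 0.22 and 0.02. The part of the surrounding stretch in the value of a member was not tested.

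**Figure D3:**
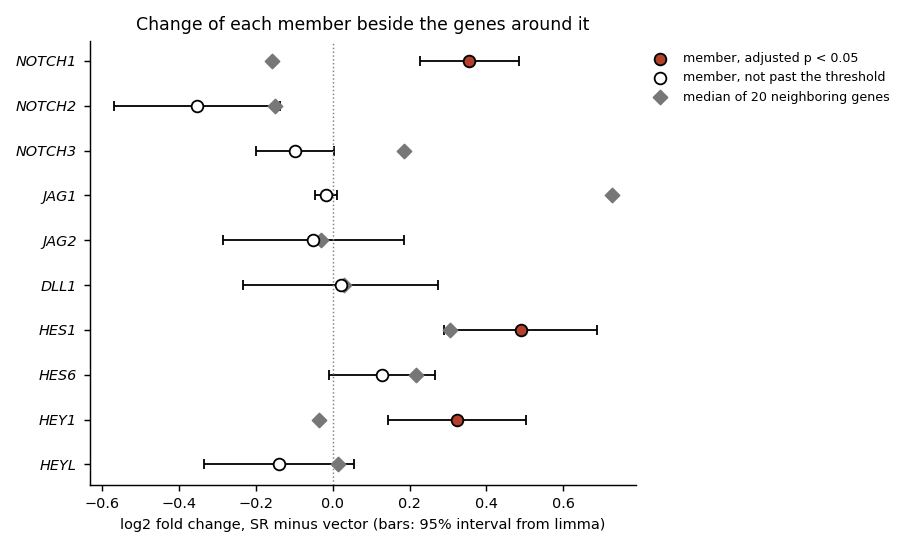
Log2 fold change of each member, SR minus vector, with its 95% interval from limma (circles, filled where the adjusted p was under 0.05) and the median log2 fold change of its 20 nearest protein-coding genes (diamonds). The diamond of JAG1 lies at 0.73 while JAG1 lies at -0.02, and the circle and diamond of NOTCH1 lie on opposite sides of 0.

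Other genes of the pathway were taken from a list of 73 genes that includes the members, of which 66 were measured. In all 10 were higher, 11 were lower and 45 did not pass the test, or 31.8% called, against 18.3% of all genes and 34.2% of those at or above the median level, and the median of their log2 fold changes was -0.01. By role, 6 of 8 protease genes, 0 of 5 canonical ligands and 1 of 9 genes of the nuclear complex were called, and differences between roles were not tested.

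The genes of the proteases that process Notch moved in both directions. FURIN, the protease of the first cut, was 7.40, 7.37 and 7.49 in the SR arrays and 6.81, 6.86 and 6.97 in the vector arrays (log2 fold change 0.54, limma adjusted p = 0.0040). Of the ADAM proteases, ADAM10, which makes the ligand-dependent cut, was 11.59, 11.45 and 11.53 in the SR arrays and 10.89, 10.91 and 10.84 in the vector arrays, a change of 0.65 ± 0.04 (log2 scale, standard error, limma adjusted p = 0.0012). ADAM17, known for releasing TNF and able to cut Notch without ligand, moved the other way.
ADAM17 was 9.32, 9.18 and 9.26 in the SR arrays and 9.85, 10.03 and 9.94 in the vector arrays, a change of -0.69 ± 0.06 (log2 scale, standard error, limma adjusted p = 0.0026). Both genes had the direction of most of their neighbors. Around ADAM10 16 of 20 neighbors were higher (median 0.49), around ADAM17 16 of 20 were lower (median -0.61), and around FURIN 11 of 20 were higher (median 0.37). The subunits of γ-secretase that passed the test were all lower. PSENEN, the smallest subunit, had 1 value, 11.47, on all SR arrays, against 12.42, 12.68 and 12.64 on the vector arrays (log2 fold change -1.11, limma adjusted p = 0.0012). It lay among 20 neighbors of which 12 were lower (median -0.38). NCSTN, the substrate receptor nicastrin, and APH1A had log2 fold changes of -0.37 and -0.18 (limma adjusted p = 0.0060 and 0.020). PSEN2, a catalytic presenilin, had 0.17 and APH1B 0.25, and neither passed the test (adjusted p = 0.080 and 0.28). The call of APH1A held in 13 of 18 alternatives.

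**Figure D4:**
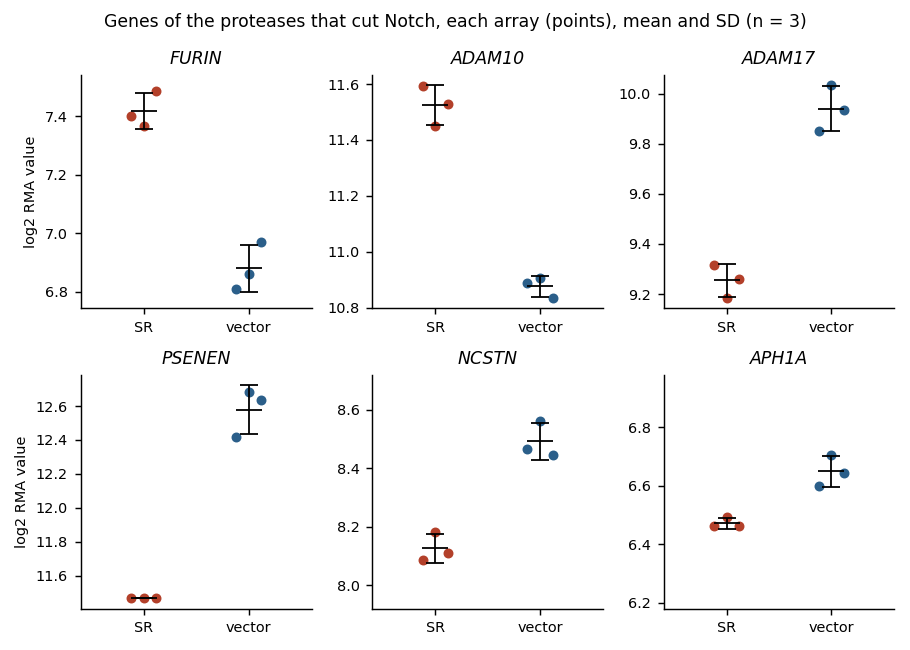
Log2 RMA value on each array (points) with the group mean and SD (black, n = 3) for the 6 genes of Notch-processing proteases that passed the test, SR arrays left and vector arrays right. FURIN and ADAM10 are higher and ADAM17, PSENEN, NCSTN and APH1A lower in SR cells, with no overlap between the groups.

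In the ligand-sending cell, MIB1, the ubiquitin ligase that drives ligand uptake, was 10.99, 11.08 and 10.99 in the SR arrays and 10.04, 9.94 and 10.28 in the vector arrays. This log2 fold change of 0.93 (SE 0.10, limma adjusted p = 0.0042) was the largest increase in the list, and 16 of its 20 neighbors on chromosome 18 were also higher (median 0.55). MIB2 was listed at 5.11 on all 6 arrays. Of the remaining ligand genes, DLL3 and DLL4 had log2 fold changes of -0.17 and 0.00 and did not pass the test, though DLL3 passed it without vector replicate 3 (-0.24, limma adjusted p = 0.025). DNER, a non-canonical ligand of the nervous system, was 4.3945, 4.4036 and 4.1698 in the SR arrays and 4.9668, 4.8288 and 4.8378 in the vector arrays, without overlap (limma adjusted p = 0.012). Both groups lay below the median gene level of 5.13, and DNER was not shown to be above background, so the size of its difference is uncertain. Its direction was opposite to that of most genes around it, with 12 of 20 neighbors higher and 1 lower (median 0.33). DLK1, a non-canonical ligand, had -0.05 and did not pass the test, except without vector replicate 2 (-0.07, limma adjusted p = 0.0049). Among the enzymes that add sugars to the receptors, POGLUT1 was lower at -0.16 (limma adjusted p = 0.010), while the Fringe genes MFNG and RFNG had 0.11 and -0.01 and did not pass.

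Genes that limit or recycle the receptors were lower in 3 of 8 cases and higher in none, a called share of 37.5% that is near the 34.2% of all genes at or above the median level. DTX4, a Deltex ubiquitin ligase, was 5.41, 5.60 and 5.52 in the SR arrays and 6.73, 6.96 and 6.39 in the vector arrays, and its log2 fold change of -1.18 (SE 0.16, limma adjusted p = 0.0097) was the largest decrease in the list. FBXW7, which marks the intracellular domain for degradation, had -0.36 (limma adjusted p = 0.037, held in 10 of 18 alternatives), and ITCH, a ubiquitin ligase of the receptor, had -0.17 (adjusted p = 0.0072). Of the 20 neighbors of DTX4, 3 were higher and 7 lower (median 0.02). Around FBXW7 9 of 20 neighbors were lower and none higher (median -0.25), and around ITCH 7 were lower and none higher (median -0.18). NUMB, a Notch inhibitor in muscle progenitors, was listed at 7.89 on all 6 arrays.

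Of the 9 measured genes of the nuclear complex, 1 passed the test. RBPJ was 8.79, 8.72 and 8.76 in the SR arrays and 8.72, 8.76 and 8.68 in the vector arrays (log2 fold change 0.04, 95% interval -0.04 to 0.12), and MAML1 had -0.03, neither past the threshold. MAML2, another Mastermind coactivator, was higher by 0.20 on the log2 scale (limma adjusted p = 0.029), in a stretch of chromosome 11 where 13 of 20 neighbors were higher and 1 was lower (median 0.56). Of 11 measured corepressor genes, HDAC2 (0.40) and KDM5A (0.24) were higher. Around HDAC2 11 of 20 neighbors were higher and none lower (median 0.34), and around KDM5A 5 were higher and 2 lower (median 0.03). The calls of MAML2 and HDAC2 held in 11 and 13 of 18 alternatives. TLE1 and TLE4, Groucho family corepressors that HES proteins recruit, were lower. TLE1 was 7.24, 7.38 and 7.51 in the SR arrays and 8.29, 8.31 and 8.18 in the vector arrays, a change of -0.88 ± 0.08 (log2 scale, standard error, limma adjusted p = 0.0027), and TLE4 had -0.12 (adjusted p = 0.0061). TLE4 was listed at 8.0457 on all 3 vector arrays. Its call held in 15 of 17 alternatives and was lost with a replicate block (limma adjusted p = 0.052). Around TLE1 9 of 20 neighbors were lower and 1 higher (median -0.15), and around TLE4 8 were lower and 1 higher (median -0.10).

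Among the 7 target genes of the list that are not members, HEY2 was higher and none was lower. HEY2, a close relative of HEY1 with a role in heart and vessels, was 5.89, 6.11 and 5.98 in the SR arrays and 5.69, 5.40 and 5.52 in the vector arrays (log2 fold change 0.46, standard error 0.10, limma adjusted p = 0.041). Its call held in 10 of 18 alternatives, and 13 of its 20 neighbors were higher (median 0.25). NRARP, a Notch-induced feedback inhibitor, was 4.61, 4.31 and 4.61 in the SR arrays and 4.91, 5.28 and 4.75 in the vector arrays. The direction was opposite to that of HES1, HEY1 and HEY2, but the log2 fold change of -0.47 missed the threshold (limma adjusted p = 0.18). The mean level of NRARP, 4.74, lay below the median gene level of 5.13, and NRARP was not shown to be above background. HES1, HEY1 and HEY2 lay little above that median, at percentiles 55.7, 55.1 and 56 of gene level. HES4 and HES5 had log2 fold changes of 0.00 and -0.10 without passing, and DTX1 and the receptor NOTCH4 each had a single value on all 6 arrays.

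**Figure D5:**
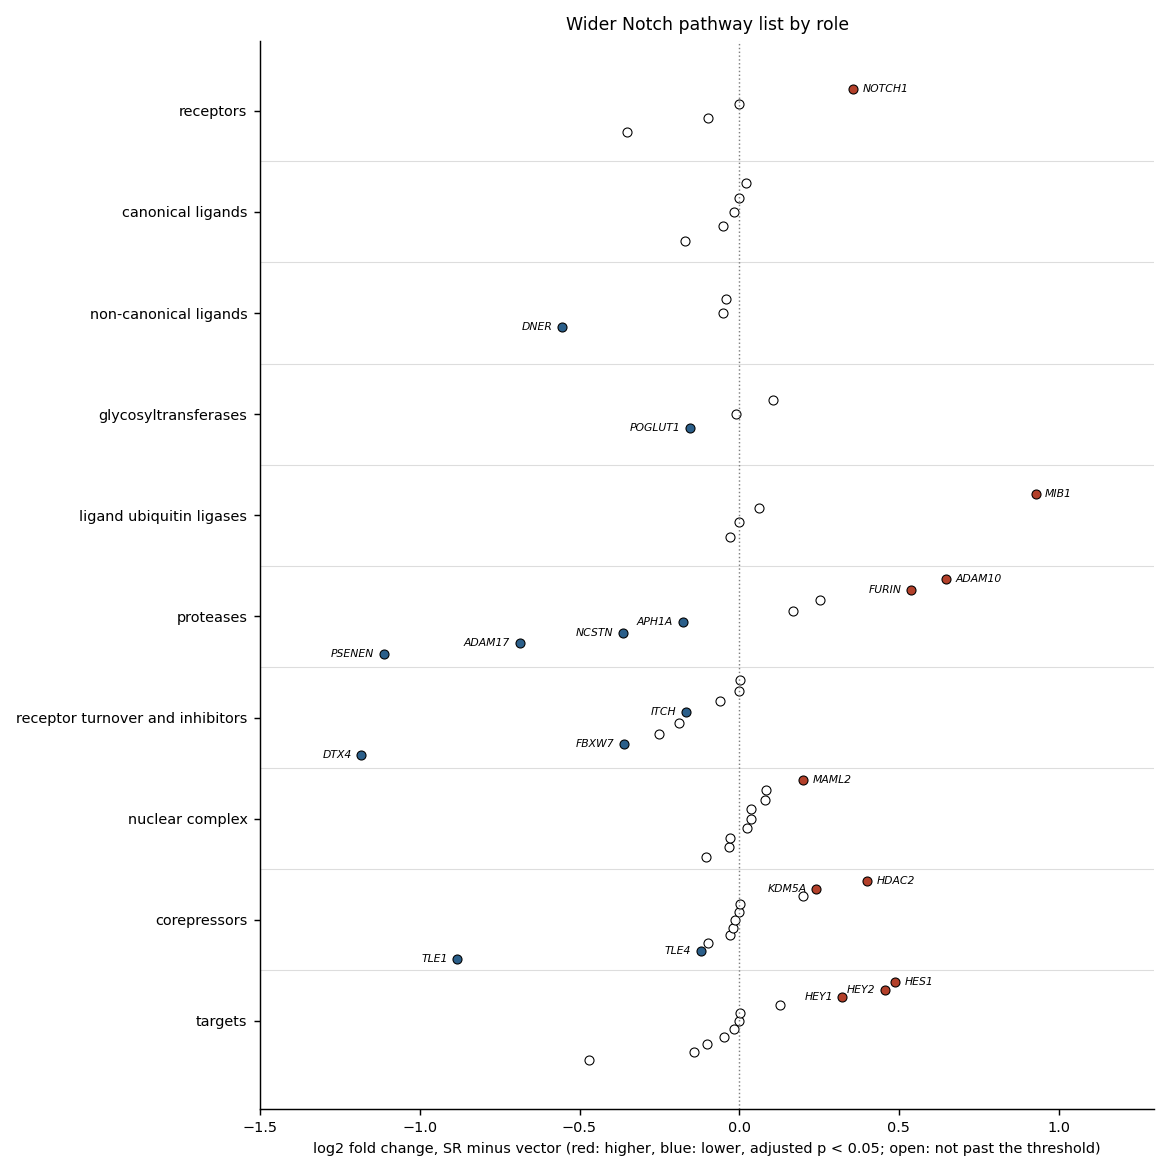
Log2 fold change, SR minus vector, of the 66 measured genes of the wider Notch pathway list (points) by role, filled and named where the adjusted p from limma was under 0.05. The protease row holds 2 genes that were higher and 4 that were lower, and the row of canonical ligands holds none.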

How the data were processed

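The authors deposited log2 values for 6 Affymetrix Human Transcriptome 2.0 arrays made with RMA (background correction, between-array normalization, and 1 summary per feature). The labels also list the Affymetrix Expression Console. Its version and the array's genome build were not given in the sources used here. Of 70523 features, 23781 carried a single gene symbol, which was updated through RefSeq (GRCh38.p14). The brightest feature stood for each of the 22411 genes, with no filter on level. For 6147 genes all values within a group were identical, and the cause was not tested. Differences (SR minus vector) were tested with lmFit and eBayes from limma 3.58.1 (R 4.3.3), adjusted by Benjamini-Hochberg over all genes at a threshold of 0.05. The procedure was tested on simulated data. The members and lists were chosen with earlier results of these data known. Of the wider list, 7 genes were not analysed here. The genes named were the members, a set listed by name whatever its result, and list genes past the threshold. MIB2, PSEN2 and APH1B were chosen after their values were seen. Other list genes were named for holding the RBPJ motif or the κB consensus. RefSeq promoters matched 61 of the 73 list genes by symbol. Alternatives covered normalization, centering, dim genes, features, variance moderation, array weights, a replicate block, the methods' t-test, single arrays left out, a 1.5-fold minimum and, added after seeing the data, removal of genes with identical values.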

Additional observations from a re-analysis of the deposited data

How the results depend on the processing

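Of the 10 members, 3 were called higher as reported, 1 with the replicate block, 0 when 1.5-fold was also required, and 1 to 3 without each array in turn, the 1 being without SR replicate 3. None was called lower as reported, and 1 was with a further quantile normalization, centering, array weights, the t-test of the methods before adjustment, dim genes left out or genes with identical values left out, in each case NOTCH2. Without each array in turn the count was 0 or 1, NOTCH2 without SR replicate 1 and NOTCH3 without vector replicate 3. NOTCH1 kept its call under 17 of 18 alternatives, HES1 under 14 of 18 and HEY1 under 9 of 17. With the replicate block the adjusted p from limma was 0.046 for NOTCH1, 0.070 for HES1 and 0.11 for HEY1. Arrays of the same number did not deviate together (correlations of 0.118, -0.217 and -0.195), so the numbers were not taken to pair the arrays. Between arrays of unlike numbers the correlations ranged from -0.198 to 0.306, the highest for SR replicate 2 with vector replicate 3. A pairing across numbers was not tested. The wider list had 6 higher and 8 lower with the replicate block and 2 higher and 4 lower at 1.5-fold. Over all genes, 1327 were higher and 1123 lower with the block, and 820 and 618 at 1.5-fold. The sign turned for values near 0 that passed no test. Without each array in turn, JAG2 ranged between -0.1267 and 0.0061, DLL1 between -0.0481 and 0.0964 and RFNG between -0.0218 and 0.0078. DLL4 was 0.0081 with quantile normalization and 0.0057 with centering. The median of all genes moved by at most 0.006 under these scalings. The cause of these changes was not tested.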
